A study of Mus musculus with 15 samples.

Results

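The genes described here separate IgE from IgG1 cells of the kind labelled iGC: Cryz, Trerf1, Mpeg1, Ptprj, Cobl and Ppl. These 6 of the 51912 genes in the deposited table were chosen by symbol, because their transcript levels differed strongly between the isotypes in iGC cells in these same data. Their iGC isotype difference is therefore a description and is not tested. Nor is any other contrast that holds iGC libraries tested for them. The reason is that the ranking near whose top they lie asks for a high level in at least 1 iGC group. That favours iGC over the other groups. All libraries came from wild-type mouse B cells with no treatment listed. The culture used 40LB cells, a fibroblast feeder line that supplies CD40 ligand and BAFF, together with IL-4 (100 ng/ml), and after 6 days an unsorted bulk sample, D6, was taken. For the remaining groups the B cells left the feeders, spent 2 more days unstimulated in RPMI and were sorted at day 8 into IgE iGC, IgG1 iGC, IgE PC and IgG1 PC; PC are plasma cells, and the labels do not spell out iGC. Each of the 5 groups has 3 replicates, 15 libraries in all, which the submitters call independent; whether they were separate animals or cultures is not stated, so p-values measure the spread between these samples. The D6 sample was not sorted by isotype and may hold feeder cells, and all cells were made in culture.

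B cells that switch their antibody class to IgE are known to become plasma cells more readily than IgG1 cells and to persist less well in germinal centres, and signals from the membrane IgE receptor are part of that difference. The 6 genes were not chosen as members of a pathway. Cryz encodes zeta-crystallin, an NADPH-dependent quinone reductase, and Trerf1 a zinc finger protein that works with histone deacetylases. Mpeg1 encodes perforin-2, a pore-forming protein of phagocytic vesicles that attacks engulfed bacteria, and Ptprj encodes CD148, a receptor-type tyrosine phosphatase that, like CD45, acts on Src family kinases beside the B cell receptor. Cobl encodes cordon-bleu, which starts new actin filaments, and Ppl encodes periplakin, a plakin that links intermediate filaments to the cell membrane.

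Levels are given as CPM, each gene's reads relative to its library's total, scaled by TMM, a method that adjusts for the share of each library taken by its most abundant genes. Deposited counts summed to between 17.7 M and 54.1 M reads per library. Summed markers of plasma cells were 16620 to 19080 CPM in IgE PC, 9268 to 13620 CPM in IgG1 PC, and at most 744.2 CPM in either iGC group, where B cell markers reached 19220 to 19930 CPM. In iGC cells the summed plasma cell markers were 649.3 to 744.2 CPM in IgE and 371.1 to 392.5 CPM in IgG1, and the germinal centre markers 725.8 to 774.5 and 554.8 to 607.6 CPM. Feeder or stromal markers, mostly Col1a1, Col1a2 and Fn1, were highest in D6 at 196.2 to 321.8 CPM, with 62.94 to 187.3 CPM in IgG1 PC and at most 67.48 CPM in the other groups.

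Whatever their direction in iGC cells, all 6 genes were lower in IgE PC than in IgG1 PC, a contrast between groups that hold no iGC library. The iGC libraries enter it through the filter on low counts, the TMM scaling and the shared estimate of spread. All 6 passed edgeR's quasi-likelihood test at a Benjamini-Hochberg adjusted p under 0.05, where 58.1% of the 15692 genes tested were called, 30.7% lower and 27.4% higher. Their median log2 fold change was -1.08, against -0.05 over all genes tested. The size ran from 1.47-fold for Cryz to 19.4-fold for Ppl. For each of the 6 genes, all 3 IgE PC libraries lay below all 3 IgG1 PC libraries. The share of all genes tested that separated in this way is not given, so nothing is read from this count. The gap was narrow for Mpeg1, whose highest IgE PC library reached 18.2 CPM, while replicate 1 of IgG1 PC stood at 18.6 CPM. In bulk libraries fewer cells that carry a transcript and less transcript per cell cannot be told apart. Every one of the 6 genes had its lowest IgG1 PC value in replicate 1, the IgG1 PC library with the highest summed plasma cell markers, 13621 CPM against 10018 and 9268 CPM in the other two. Feeder markers were also lower in IgE PC, at 21.37 to 35.27 CPM. The part of these differences in the result was not tested. Without IgG1 PC replicate 1 the log2 fold changes ran from -0.62 for Cryz to -4.53 for Ppl, all called lower. Leaving out the lowest IgG1 PC library raises the IgG1 PC mean of every gene. The direction was therefore fixed in advance, and nothing is read from it about these markers.

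**Figure D1:**
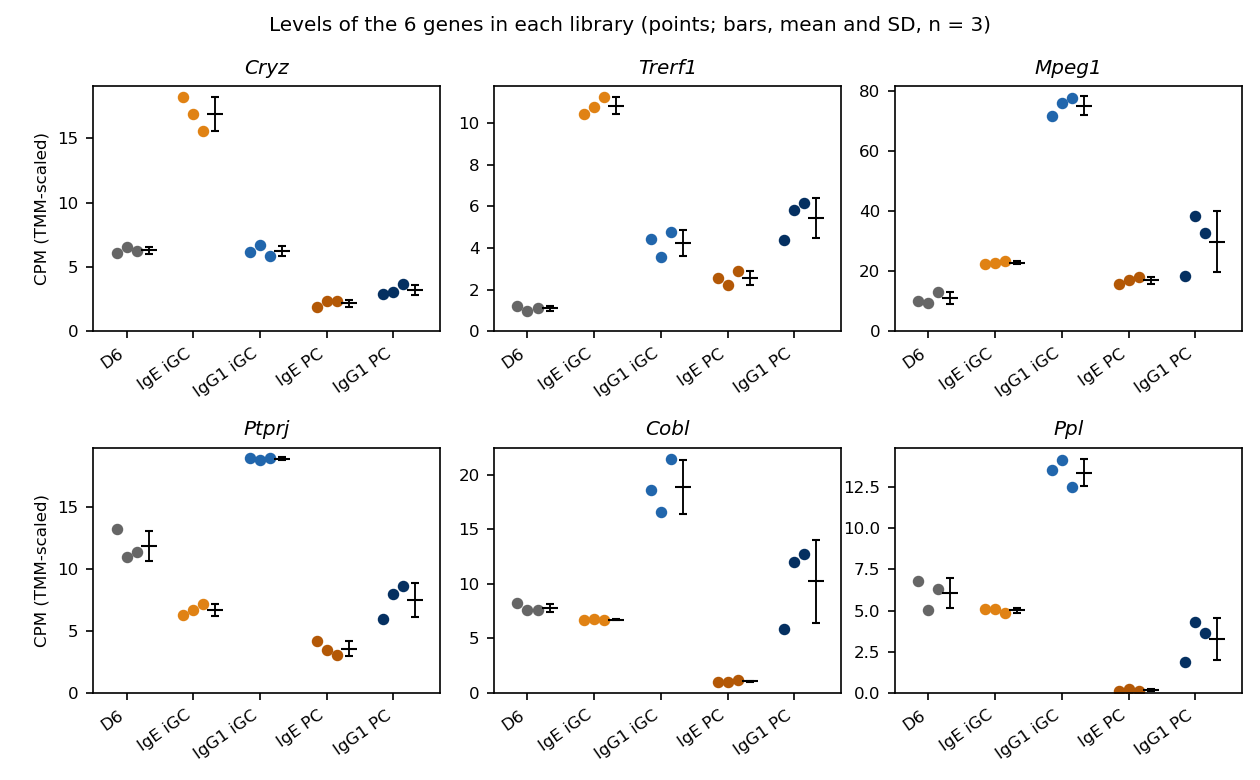
Transcript level of each gene (CPM, TMM-scaled, linear axis from 0) in the 15 libraries of the 5 groups; points are libraries in replicate order, and the black bars give the mean and SD of 3. Cryz and Trerf1 peak in IgE iGC and the other 4 genes in IgG1 iGC, and IgE PC lie below IgG1 PC in every panel.

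**Figure D2:**
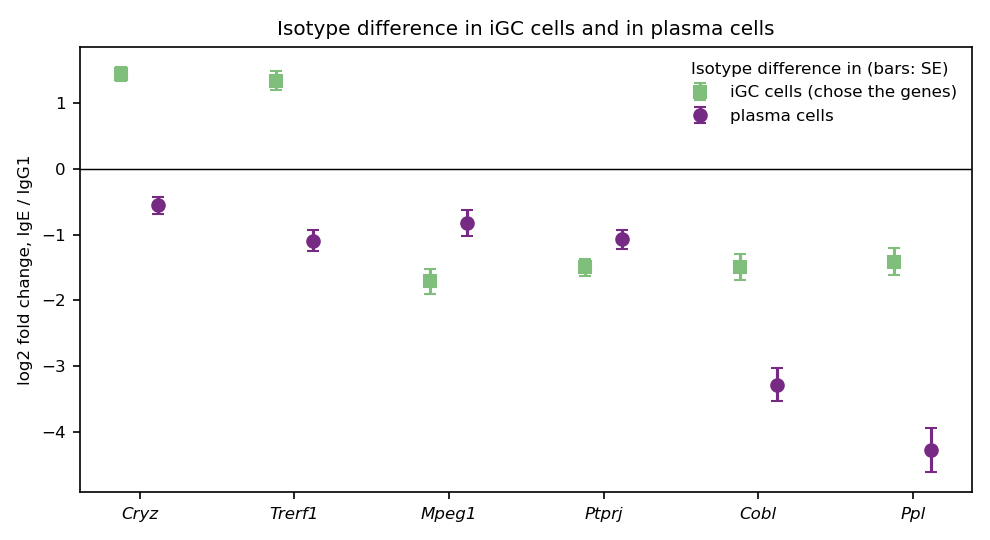
Log2 fold change of IgE over IgG1 (bars, standard error) in iGC cells, the contrast that chose the genes, and in plasma cells. Cryz and Trerf1 lie above 0 in iGC cells and below 0 in plasma cells, while Cobl and Ppl have larger negative values in plasma cells (-3.29 and -4.28) than in iGC cells (-1.50 and -1.41).

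In iGC cells Cryz and Trerf1 were the genes with higher levels in IgE, and Mpeg1, Ptprj, Cobl and Ppl those with lower levels. In that contrast 3.87% of all genes tested were called, 1.99% higher and 1.88% lower in IgE. Among named genes with at least 10 CPM in a group and no overlap between the isotypes, Cryz and Trerf1 held ranks 3 and 5 of 213 by rise. Mpeg1, Ptprj, Cobl and Ppl held ranks 2, 3, 4 and 5 of 172 by fall. Above Cryz stood Gcsam and Eaf2, at log2 fold changes of 2.32 and 1.81, and Jchain (1.42) lay between Cryz and Trerf1. Ccl22 (-1.77) led the falls. The next gene below the members on either side was close. Slc24a2 had a log2 fold change of 1.34, as Trerf1 did, and Plbd1 had -1.38 where Ppl had -1.41.

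Cryz was measured at 18.2, 16.9 and 15.5 CPM in IgE iGC, at 6.16, 6.71 and 5.88 CPM in IgG1 iGC, and at 6.08, 6.56 and 6.24 CPM in D6. IgE iGC thus stood alone, at 16.9 ± 1.35 CPM (mean ± SD, n = 3), while IgG1 iGC and D6 overlapped. The plasma cell libraries had 1.89, 2.37 and 2.34 CPM in IgE and 2.90, 3.09 and 3.65 CPM in IgG1, so the isotype order was the opposite of that in iGC cells. In IgE PC Cryz was 1.47-fold lower than in IgG1 PC (log2 fold change -0.56, SE 0.12; edgeR Benjamini-Hochberg adjusted p = 0.00134). This call rests on the count scale, since limma on log2(TPM + 1) gave -0.07 with an adjusted p of 0.788. Between PC and iGC cells the log2 difference was -2.95 (SE 0.12) in IgE and -0.95 (SE 0.11) in IgG1, without a test.

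Cryz (ENSMUSG00000028199) lies on the plus strand at chr3:154596711-154623182 (GRCm38, GENCODE vM21). Its exons share 252 bases with exons of Tyw3, a tRNA wybutosine synthesis gene on the other strand, and the strand setting of the counting is not given in the sources used here. Tyw3 had 6.17 ± 0.489 CPM in IgE iGC and 4.92 ± 0.420 CPM in IgG1 iGC (n = 3 each), a smaller gap than that of Cryz. In plasma cells Tyw3 was lower in IgE by -0.42 (SE 0.14; edgeR Benjamini-Hochberg adjusted p = 0.0189). The 250 bases before the Cryz start site (RefSeq, GRCm38.p6, chr3:154596461-154596710, plus strand) are shown because Cryz changed its isotype order between stages; they lie inside Tyw3 but touch none of its exons. Capitals in this and the later promoters mark matches, on either strand, to any of 4 motifs that were searched: CAGGTG, an E-box bound by E proteins, GGAAA, the core of NFAT sites, GAGGAA, the PU box, and TGANTCA, an AP-1 site.
Cryz: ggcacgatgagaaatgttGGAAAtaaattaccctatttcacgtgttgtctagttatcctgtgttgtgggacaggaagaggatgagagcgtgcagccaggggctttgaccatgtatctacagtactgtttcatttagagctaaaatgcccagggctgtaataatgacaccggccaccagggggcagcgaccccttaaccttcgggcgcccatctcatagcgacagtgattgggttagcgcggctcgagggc
The only match is a GGAAA that starts 232 bases before the start site. Of the same 250-base window in 32851 RefSeq promoters, 55.6% held GGAAA, 23.3% GAGGAA, 17.2% CAGGTG and 6.75% TGANTCA. A match is a description of the letters and not a bound site.

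Trerf1 had 10.4, 10.8 and 11.3 CPM in IgE iGC and 4.44, 3.57 and 4.78 CPM in IgG1 iGC. D6 was the lowest group, at 1.23, 1.00 and 1.14 CPM. In plasma cells the values were 2.58, 2.24 and 2.89 CPM in IgE and 4.37, 5.83 and 6.15 CPM in IgG1. IgE iGC and D6 each lay apart from every other group, while IgG1 PC and IgG1 iGC overlapped. Trerf1 was 2.13-fold lower in IgE PC than in IgG1 PC (log2 fold change -1.09, SE 0.15; edgeR Benjamini-Hochberg adjusted p = 2.23e-05). Between PC and iGC cells the log2 difference was -2.07 (SE 0.15) in IgE and 0.36 (SE 0.15) in IgG1, again without a test; on the log2(TPM + 1) scale the IgG1 value was -0.10. The mean of both iGC groups lay 2.59 above D6 on the log2 scale (SE 0.15), the largest of the 6 values of that untested difference. Trerf1 (ENSMUSG00000064043) spans 221.1 kb at chr17:47140875-47361958, plus strand, and carries the type processed transcript in GENCODE vM21.

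Of the 4 genes higher in IgG1 iGC, Mpeg1 was the most abundant. It had 71.9, 76.1 and 77.8 CPM in IgG1 iGC and 22.6, 22.8 and 23.5 CPM in IgE iGC, with no overlap. In plasma cells the values were 15.8, 17.2 and 18.2 CPM in IgE and 18.6, 38.5 and 32.9 CPM in IgG1. Replicate 1 of IgG1 PC lay next to the IgE PC libraries and the other two well above them. Mpeg1 was 1.77-fold lower in IgE PC (log2 fold change -0.82, SE 0.19; edgeR Benjamini-Hochberg adjusted p = 0.00217), and -1.07 without that library. The untested log2 difference between PC and iGC cells was -1.32 (SE 0.19) in IgG1 and -0.43 (SE 0.20) in IgE, so Mpeg1 and Ptprj differed from the other members in having the larger IgG1 value.

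Mpeg1 is widely used as a macrophage reporter, and markers of phagocytes were read beside it. The 10 macrophage and monocyte markers summed to 21.29 to 23.86 CPM in IgG1 iGC and 17.1 to 19.47 CPM in IgE iGC, most of it Cd68 (14.4 and 12.8 CPM) and Itgam (6.12 and 4.57 CPM). In plasma cells they summed to 24.07 to 27.18 CPM in IgG1 and 18.63 to 20.05 CPM in IgE. Adgre1, which encodes the macrophage marker F4/80, was higher in IgG1 at both stages, as Mpeg1 was. It averaged 1.73 CPM in IgG1 iGC against 0.629 in IgE iGC, and 0.986 CPM in IgG1 PC against 0.0855 in IgE PC. In D6, however, Adgre1 was highest, at 1.85 CPM, and Mpeg1 lowest by CPM. Lyz2 and Csf1r went the other way in iGC cells, at 0.396 and 0.0685 CPM in IgE and 0.109 and 0.0454 CPM in IgG1. C1qa had no count in any library, Cd14, C1qb, C1qc and Mertk had at most 2 in any, and Csf1r at most 9. The 6 dendritic cell markers summed to 117.4 to 121 CPM in IgG1 iGC and 58.2 to 64.26 CPM in IgE iGC, and to 42.13 to 63.81 and 11.12 to 12.6 CPM in IgG1 and IgE PC, higher in IgG1 at both stages as Mpeg1 was. Nearly all of that sum was Flt3 and Zbtb46, whereas Clec9a had no count in any library. In IgG1 iGC Flt3 alone averaged 94.5 CPM against 45.8 CPM in IgE iGC. The part of these markers in the Mpeg1 result was not tested.

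Mpeg1 (ENSMUSG00000046805) is a short gene of 4.5 kb at chr19:12460779-12465283 on the plus strand. Its upstream bases (RefSeq, GRCm38.p6, chr19:12460520-12460769) and those of Cobl (chr11:12464961-12465210, minus strand) are shown because both genes were lower in IgE at both stages.
Mpeg1: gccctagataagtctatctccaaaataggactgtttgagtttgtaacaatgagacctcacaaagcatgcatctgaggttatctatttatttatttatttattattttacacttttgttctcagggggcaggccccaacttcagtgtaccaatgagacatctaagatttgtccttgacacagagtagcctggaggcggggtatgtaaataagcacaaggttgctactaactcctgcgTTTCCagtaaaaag
Cobl: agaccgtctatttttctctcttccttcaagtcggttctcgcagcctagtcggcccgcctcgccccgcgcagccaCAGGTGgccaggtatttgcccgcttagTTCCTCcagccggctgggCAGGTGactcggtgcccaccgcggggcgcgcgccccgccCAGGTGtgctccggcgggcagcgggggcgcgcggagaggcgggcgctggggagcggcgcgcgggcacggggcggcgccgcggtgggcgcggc
The Mpeg1 stretch holds 1 match, a GGAAA on the opposite strand. The Cobl stretch holds 3 CAGGTG and 1 GAGGAA on the opposite strand, and no match to the other motifs; the 3 CAGGTG read on the printed strand. RefSeq gives Cobl another start site, at position 12412140 of chromosome 11, whose 246 upstream bases hold 0 CAGGTG, 0 GAGGAA and 1 GGAAA; which start these cells use was not analysed. Promoter windows were found for 5 of the 6 genes, and Ppl had none. Those of Trerf1, which also changed its isotype order, and of Ptprj, also lower in IgE at both stages, are not printed. The Trerf1 window, chr17:47229980-47230229, lies before a RefSeq start site that is 89355 bases inside the GENCODE gene. Whether these cells use that start was not analysed. It held 2 GAGGAA and 1 GGAAA. The 198 bases of Ptprj held 2 GAGGAA, and neither window held CAGGTG or TGANTCA.

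Ptprj was held within a narrow range in IgG1 iGC, at 18.9, 18.7 and 18.9 CPM, against 6.25, 6.66 and 7.18 CPM in IgE iGC. D6 lay between them at 13.2, 10.97 and 11.4 CPM. In plasma cells the values were 4.21, 3.47 and 3.03 CPM in IgE and 5.95, 7.95 and 8.59 CPM in IgG1. The IgG1 PC and IgE iGC libraries overlapped, and no other neighbours in the order of the 5 groups did. Ptprj was 2.10-fold lower in IgE PC than in IgG1 PC (log2 fold change -1.07, SE 0.14; edgeR Benjamini-Hochberg adjusted p = 1.01e-05). D6 lay below all IgG1 iGC libraries and above all IgE iGC libraries, and the mean of both iGC groups was at -0.08 (SE 0.11) against D6 on the log2 scale, without a test. Ptprj (ENSMUSG00000025314) spans 150.9 kb at chr2:90429754-90580647 on the minus strand; its counts were fractional in 3 libraries.

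Cobl and Ppl, the cytoskeletal genes, showed the largest isotype differences among plasma cells. Cobl had 18.7, 16.6 and 21.5 CPM in IgG1 iGC and 6.69, 6.75 and 6.66 CPM in IgE iGC. In IgE PC it was at 0.987, 1.04 and 1.15 CPM, and in IgG1 PC at 5.88, 12.04 and 12.8 CPM. IgE PC were 9.77-fold lower than IgG1 PC (log2 fold change -3.29, SE 0.25; edgeR Benjamini-Hochberg adjusted p = 4.64e-08), which placed Cobl at rank 322 from the lowest of 15692 genes. D6, with 8.26, 7.65 and 7.59 CPM, overlapped IgG1 PC only through replicate 1 of the latter. Cobl did not pass between IgG1 PC and D6 (log2 fold change 0.40, SE 0.20; edgeR Benjamini-Hochberg adjusted p = 0.0803), and without IgG1 PC replicate 1 it did, at 0.67 (adjusted p = 1.46e-05). Cobl (ENSMUSG00000020173) lies on the minus strand at chr11:12236608-12464960.

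Ppl differed from Cobl in its order, since its IgG1 PC libraries lay below those of IgE iGC. It had 13.5, 14.1 and 12.5 CPM in IgG1 iGC, 5.12, 5.08 and 4.86 CPM in IgE iGC, and 6.81, 5.05 and 6.32 CPM in D6. IgG1 PC had 1.85, 4.32 and 3.63 CPM. In IgE PC only 5, 7 and 4 reads were counted, 16 in all with an exact Poisson interval of 9.15 to 26.0 (95%, counting error only), or 0.169 ± 0.0456 CPM (n = 3). The isotype difference was 19.4-fold (log2 fold change -4.28, SE 0.34; edgeR Benjamini-Hochberg adjusted p = 5.60e-08), rank 153 from the lowest. Its size depends on the scale where the reads are so few: on log2(TPM + 1) it was -0.60. Epithelial markers were read because Ppl is best known from epithelia. The 7 of them summed to 2.316 to 3.989 CPM in IgG1 PC and 0.8707 to 0.8842 CPM in IgE PC. The sum was thus lower in IgE PC, as Ppl and Cobl were, and most of it was Epcam (2.71 CPM in IgG1 PC and 0.832 CPM in IgE PC). The markers summed to 0.1717 to 0.2318 CPM in IgG1 iGC, where both genes were highest. In the IgE iGC libraries they summed to 0.1592, 0.389 and 1.86 CPM. The part of these markers in the plasma cell result was not tested. Ppl (ENSMUSG00000039457) lies at chr16:5086291-5132421 on the minus strand.

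Averaged over isotypes, the level in plasma cells lay below that in iGC cells for all 6 genes. On the log2 scale the differences were -1.95 (SE 0.08) for Cryz, -0.85 (SE 0.11) for Trerf1, -0.87 (SE 0.13) for Mpeg1, -1.11 (SE 0.10) for Ptprj, -1.77 (SE 0.16) for Cobl and -3.44 (SE 0.19) for Ppl. They are given without a test and nothing is read from their common direction, which the choice of genes on iGC levels favours; of all genes 67.5% were called in this contrast, 35.7% lower and 31.8% higher. Feeder markers summed to 49.28 to 67.48 CPM in IgE iGC and 21.37 to 35.27 CPM in IgE PC, a drop with no overlap, and to 28.3 to 58.78 CPM in IgG1 iGC and 62.94 to 187.3 CPM in IgG1 PC, a rise with none. Their part in these differences was not tested.

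Against the day 6 culture the genes split. The mean of the iGC groups lay above D6 for 5 of the 6, a direction that the choice of genes also favours and that is not tested (72.3% of all genes tested were called, 34.3% higher and 38.0% lower). The log2 differences were 1.92 (SE 0.18) for Mpeg1, 0.71 (SE 0.10) for Cryz, 0.52 (SE 0.18) for Cobl and 0.44 (SE 0.18) for Ppl. The Cobl and Ppl averages combine an IgG1 group above D6 with an IgE group below D6 for Cobl and overlapping it for Ppl. IgE PC were called lower than D6 for Cryz, Ptprj, Cobl and Ppl and higher for Trerf1 and Mpeg1, where 76.4% of all genes were called, 39.5% lower and 36.9% higher. IgG1 PC were lower for Cryz, Ptprj and Ppl and higher for Trerf1 and Mpeg1, where 71.9% of all genes were called, 36.0% lower and 35.9% higher. These 3 contrasts share the D6 libraries. Ppl had the largest value of them, a log2 fold change of -5.14 (SE 0.32; edgeR Benjamini-Hochberg adjusted p = 7.96e-10) in IgE PC, against -0.86 (SE 0.21) in IgG1 PC. For Mpeg1 the rise in IgE PC, 0.63 (SE 0.20; edgeR Benjamini-Hochberg adjusted p = 0.0102), was not kept under total-count scaling (0.10, adjusted p = 0.682) and had the opposite sign on log2(TPM + 1), -0.20. For Trerf1 the corresponding value, 1.19 (SE 0.17), became 0.09 on log2(TPM + 1), with the call lost.

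**Figure D3:**
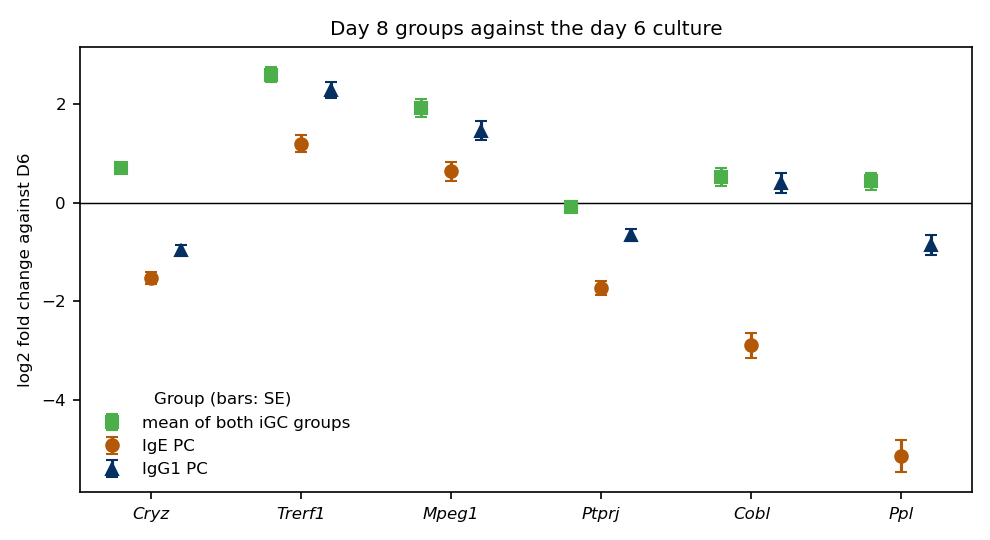
Log2 fold change against the D6 libraries (bars, standard error) for the mean of both iGC groups, IgE PC and IgG1 PC. Trerf1 and Mpeg1 lie above 0 in all 3, while Ppl reaches -5.14 in IgE PC.

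Between genes, levels can be compared only per transcript length, as TPM. In IgG1 iGC Mpeg1 averaged 28.1 TPM, Cobl 6.13, Cryz 5.32, Ptprj 4.32, Ppl 3.43 and Trerf1 1.23 TPM. In IgE iGC Cryz led with 14.9 TPM, before Mpeg1 at 8.44 and Trerf1 at 3.30 TPM. In IgE PC every member but Mpeg1 (3.76 TPM) and Cryz (1.61 TPM) was under 1 TPM. The order of the 5 groups by TPM matched that by CPM for Cryz and Ppl, and for the other 4 genes groups whose libraries overlapped, or Mpeg1's D6 and IgE PC, changed places.

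Across the 15 libraries Cobl, Ppl and Ptprj ran closest together, with Pearson r of log2 CPM of 0.959 between Cobl and Ppl, 0.900 between Ptprj and Ppl and 0.891 between Ptprj and Cobl. Cryz and Mpeg1 were nearly unrelated (r = 0.0976). These correlations describe 5 groups of 3 libraries and carry no test. Of 8931 eligible genes, those most like Cobl were Gbp2 (r = 0.992), Mreg (0.989) and Nsmf (0.968). Those most like Ppl were Zeb2 (0.993), Lilr4b (0.991) and Nedd4 (0.991), with Zeb2, a zinc finger repressor, at 87.85 CPM in IgG1 iGC and 4.702 CPM in IgE PC. Ptprj was nearest to Hs6st1 (0.947), Pdcl3 (0.939) and Il6ra (0.928), and Mpeg1 to Pde8a (0.944), Gbp5 (0.918) and Plxnc1 (0.907). Trerf1 was nearest to Dck (0.976), Ankle1 and Spc25 (both 0.953), and Cryz to Lrmp (0.971), Sit1 (0.959) and Naa40 (0.957). Lrmp, a membrane protein of lymphoid cells, had 424.3 CPM in IgE iGC, 277.7 in IgG1 iGC and 125.9 in IgE PC.

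The relatives of each gene were read from fixed lists, without the member itself. Of 8 tested quinone and enone reductases, 3 were called lower in IgE PC than in IgG1 PC and 0 higher by edgeR, among them Vat1 (log2 fold change -0.80, SE 0.15) and Mecr (-0.77, SE 0.08), a mitochondrial enoyl reductase; 5 did not pass. The list's median was -0.36, against -0.05 over all genes. From iGC cells to plasma cells 4 of the 8 rose and 2 fell, with a median of 0.05. Between the iGC isotypes 0 of the 8 were called, where 3.87% of all genes were.

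Trerf1 and its relative Mideas (listed as Elmsan1) are alternative scaffolds of the mitotic deacetylase complex. In plasma cells the 5 other members split, 2 higher in IgE and 2 lower, with a median of -0.01. Mideas was higher at 0.67 (SE 0.15) and Dnttip1 at 0.19 (SE 0.06), while the deacetylase Hdac1 was lower at -0.70 (SE 0.05) and Znf541 (listed as Zfp541) at -1.49 (SE 0.17). Mideas therefore had the opposite isotype difference to Trerf1. From iGC cells to plasma cells 4 of the 5 fell and 1 rose. Between the iGC isotypes 1 of the 5 was called, where 3.87% of all genes were: Znf541 was lower in IgE (log2 fold change -1.12; edgeR Benjamini-Hochberg adjusted p = 0.000366), while Trerf1 had its higher level there.

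Among pore-forming relatives of Mpeg1, 3 of 7 could be tested and all 3 were called lower in IgE PC, with a median of -3.36, the value of Prf1; the other 4 had too few counts. Gsdmd, the gasdermin that opens the membrane in pyroptosis, was the only relative above 10 CPM in a group, at -0.42 (SE 0.08). All 3 also fell from iGC cells to plasma cells, where 35.7% of all genes did. Between the iGC isotypes 0 of the 3 were called, where 3.87% of all genes were.

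Of 8 tested receptor-type phosphatases, 4 were lower in IgE PC, 2 higher and 2 did not pass, with a median of -1.37. That median leans on genes of low level. Ptprk, Ptprm, Ptprg and Ptprf had the lowest values, -1.62 to -4.10, and averaged at most 0.871 CPM in either plasma cell group. All of them were highest in D6, and the part of feeder RNA in their values was not tested. Ptprs was lower at -1.12 (SE 0.11), Ptpre and Ptpra were higher at 0.47 (SE 0.06) and 0.29 (SE 0.05). Ptprc, which encodes CD45, averaged 780.5 CPM in plasma cells of IgE and 720.2 CPM in those of IgG1 and did not pass (0.12; edgeR Benjamini-Hochberg adjusted p = 0.365). Between iGC cells and plasma cells 2 of the 8 rose and 2 fell, and 0 of the 8 were called between the iGC isotypes.

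The 22 tested actin nucleators and partners of Cobl divided into 10 lower, 6 higher and 6 not called in IgE PC, with a median of -0.15. Spire1 (-1.73, SE 0.20) and the formin Inf2 (-0.88, SE 0.07) were lower, and Diaph2 (0.77, SE 0.18) and the Cobl homologue Cobll1 (0.53, SE 0.07) higher. Cobl lay outside the range of the whole list, -2.03 to 0.77, and Cobll1 moved the other way. Of the 22, 14 fell from iGC cells to plasma cells and 1 rose. Between the iGC isotypes 1 of the 22 was called, higher in IgE, a share near that of all genes.

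Of 8 tested plakins and desmosome proteins, 3 were lower in IgE PC, 0 higher and 5 not called, with a median of -0.10 and a range of -2.24 to 0.32 that did not reach the value of Ppl. Jup, which encodes plakoglobin, was lower at -2.24 (SE 0.36) and Pkp4 at -1.06 (SE 0.13). Jup was highest in D6, at 12.7 CPM, the group with the highest feeder markers. Of the relatives named above as lower in IgE PC, Vat1, Mecr, Znf541, Ptprs, Spire1, Inf2 and Pkp4 also had their highest mean in D6. Spire1, for example, averaged 20.5 CPM in D6 and 4.02 CPM in IgG1 PC. Hdac1 and Gsdmd did not. The part of feeder RNA in these values was not tested. From iGC cells to plasma cells 4 of the 8 rose and 2 fell, and 0 of the 8 were called between the iGC isotypes. Calls in these lists are edgeR calls at an adjusted p under 0.05 over all genes tested. Of all genes, 30.7% were called lower and 27.4% higher in IgE PC than in IgG1 PC. From iGC cells to plasma cells 35.7% fell and 31.8% rose, and 3.87% were called between the iGC isotypes.

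**Figure D4:**
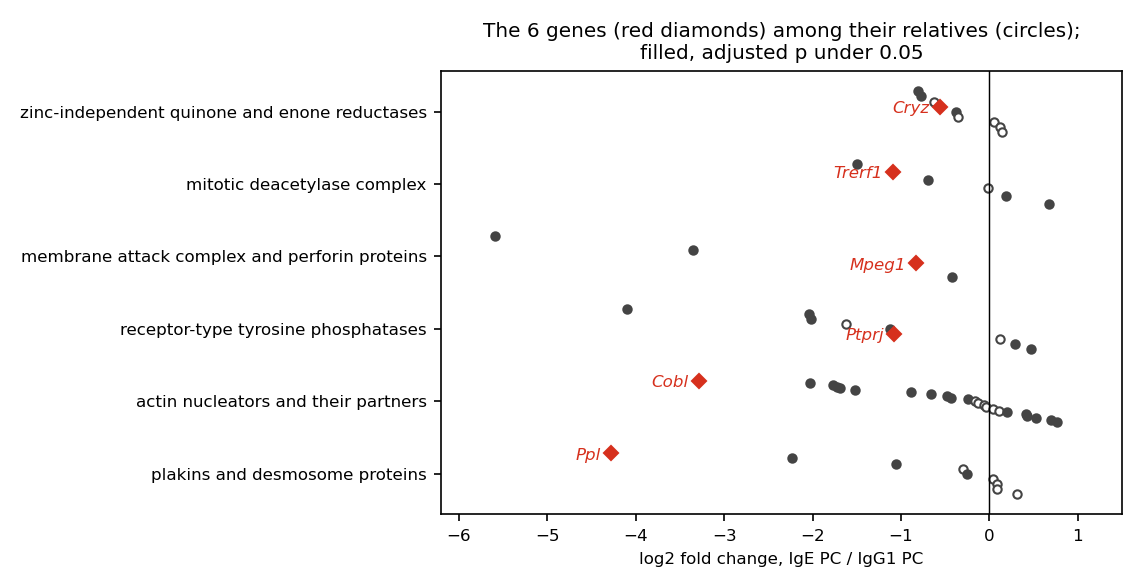
Log2 fold change of IgE PC over IgG1 PC for the 6 genes (red diamonds) and the tested genes of each list (circles, filled where the adjusted p is under 0.05). Cobl and Ppl lie to the left of every relative in their lists, while Cryz, Trerf1, Mpeg1 and Ptprj lie among theirs.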

How the data were processed

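Per the labels' protocols, polyA libraries were read single-end and strand-specific at 76 bp. The submitters' processing notes name cutadapt 1.9.1, STAR 2.5.2a, RSEM 1.3.0, DESeq2 1.12.3 and the build GRCm38; the annotation and any filter are not given in the sources used here. The authors deposited expected counts, RSEM's estimated reads per gene, which need not be whole (at least 90.95% of values per library were), and TPM, which their RSEM run scaled for effective length and library total. Per the file headers every column names 1 library; 0 columns stayed unmapped.

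Counts were rounded. The filter filterByExpr (count 10, total 15) left 15692 genes, and TMM factors ran from 0.764 to 1.15. With edgeR 4.0.16 in R 4.3.3 the 15 libraries entered 1 fit with a mean for each group (glmQLFit, robust; 10 residual degrees of freedom; biological coefficient of variation 10.4%). A gene was called when its p-value, Benjamini-Hochberg adjusted over all genes, was under 0.05. Standard errors are the log2 fold change divided by the square root of F. The script was tested on simulated data. Alternatives were DESeq2 1.42.0, total-count scaling, no filter, fewer groups in the fit, the replicate number as a block, limma 3.58.1 on log2(TPM + 1), and each library left out.

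The members and lists were chosen with earlier results of these data known. Plasma cells against iGC cells, and iGC cells against D6, were planned as tests of the members and are given without one, since the iGC libraries chose them; the lists' calls in these contrasts come from the same fit. Named genes are the 6 members, the 3 genes most correlated with each over 15 libraries (at least 10 CPM in a group; no immunoglobulin or T cell receptor segments or predicted genes), up to 2 called rises and 2 called falls per list in IgE PC against IgG1 PC (at least 10 CPM in a group), and neighbours in the iGC ranking. Ptprc, Tyw3, the list genes named below 10 CPM and the named markers were picked after their values were seen. Symbols were found for 51633 of 51912 identifiers, and 2 list genes under older names. Promoter letters are RefSeq's. Sampling noise was exceeded in all 15 replicate pairs (chi-square per degree of freedom 4.82 or more).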

Additional observations from a re-analysis of the deposited data

Results flagged for a closer look

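Cryz and Trerf1 had opposite isotype differences at the 2 stages. By CPM the isotypes did not overlap at either stage. The ranking asks for this in iGC cells, and in plasma cells the share of all genes that separated is not given. Nothing is therefore read from the lack of overlap. In iGC cells their log2 fold changes of IgE over IgG1 were 1.44 and 1.34, and in plasma cells -0.56 and -1.09 (mean Cryz levels of 2.20 and 3.21 CPM in IgE PC and IgG1 PC, and of 2.57 and 5.45 CPM for Trerf1; n = 3 each). The difference between stages was not tested, because the iGC contrast chose the genes. On log2(TPM + 1) the plasma cell value of Cryz was -0.07, so its change of order is seen on the count scale.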

How the results depend on the processing

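Of 216 values of the 6 genes in tested contrasts under an alternative, 209 kept direction and call, 4 lost the call, 1 gained it and 2 changed sign. Those 2 were Mpeg1 between IgE PC and D6 (-0.20) and Cobl between IgG1 PC and D6 (-0.27), both on log2(TPM + 1). Without the low-count filter the Mpeg1 value kept its size, 0.62, at an adjusted p of 0.0502. Of 414 untested values 377 moved by less than the replicate SD, and 2 changed sign: Trerf1 between PC and iGC cells in IgG1 on log2(TPM + 1), to -0.10, and Ptprj between iGC cells and D6 (-0.13 to 0.0098 when a D6 library was left out, positive only without replicate 1). All 6 genes were called lower in IgE PC than in IgG1 PC in each alternative but limma on log2(TPM + 1), which called 5. Total-count scaling moved the median over all genes in that contrast from -0.05 to -0.30 and the share of calls that were higher from 47.2% to 23.8%; the 6 genes were called lower under both. For plasma cells against iGC cells that share moved from 47.1% to 25.2%, for IgE PC against D6 from 48.3% to 26.8%, and for IgG1 PC against D6 from 50% to 35%.

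The number of genes called between the iGC groups, 607, was 937 with DESeq2, 1503 with only the iGC groups in the fit, and 323 to 403 when an iGC library was left out; the cause was not tested. Blocking on replicate number gave 580 called genes there and 9005 between the plasma cell groups, and in the 3 tested contrasts it changed none of the calls of the 6 genes. Libraries with the same number deviated from their groups with correlations between -0.195 and 0.0908, so no deviation shared by number was seen. With 3 libraries per group this cannot show whether samples of the same number came from a shared animal or culture. Depth limits Ppl and Cobl in IgE PC most, at 4 to 7 and 33 to 34 reads per library.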
